A study of Rattus norvegicus with 119 samples.

Results

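Single cells dissociated from the ventral mesenchymal pad (VMP) were compared, gene by gene, with single cells dissociated from the adjacent urethra (SU) of newborn rats. All 49 VMP cells and all 66 SU cells in the deposited single-cell tables were taken, which are 115 of the 119 samples of the series, the other 4 being bulk libraries of the same tissues. The animals were female Wistar rats on the day of birth (P0). VMP is a mesenchymal pad cut away from the urethra, and SU is the remaining piece, which holds smooth muscle, the mesenchyme around the urethra and urethral epithelium. Both tissues were digested with collagenase 1A and strained, which per the methods set dispersed fibroblasts apart from epithelium and clumps. Cells were stained for viability and loaded on the Fluidigm C1, a microfluidic device that isolates cells and makes full-length cDNA from each of them separately. The cells of a tissue came from a single suspension of pooled tissue, and the number of animals in it was not given in the sources used here. Each tissue is therefore 1 sample here, cells are not replicate animals, and what separates the tissues cannot be told apart from what separates the pools, so values are described and no test is given.

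VMP is an inductive mesenchyme. In males, signals from this pad instruct the urethral epithelium to bud and branch into the prostate, and in females the pad forms but prostate buds do not normally grow. Inductive mesenchyme is known for secreted factors such as fibroblast growth factors and Wnt regulators, and the stroma around the urethra for forming matrix and smooth muscle layers.

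A cell was called positive for a gene when it had at least 10 reads of it, and levels are CPM (the reads of a gene scaled to the cell's total of reads on genes, spike-in controls left out), which compare the tissues for 1 gene and not 1 gene with another. Reads on genes per cell spanned 248738 to 1200734 (VMP) and 199849 to 1488320 (SU). VMP cells were positive for a median of 2478 genes (1288 to 4292) and SU cells for 2926.5 (1213 to 6102). The labels speak of 52 VMP and 63 SU sequenced libraries, while the tables hold 49 and 66, and both pairs add up to 115. The VMP number equals the count of cells that the paper reports after quality control, while the SU number is above that count. The profile of every cell correlated better with the mean of the other cells of its own tissue than with the mean of the other tissue, with 0 exceptions in VMP and 0 in SU. No pair of cells had identical counts, and 33 capture site numbers occur in both tissues on separate captures.

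The 7 marker genes given for the comparison differed between the tissues in their share of positive cells. Of the VMP markers, Fgf10 was positive in 75.5% of VMP cells and 22.7% of SU cells, Rspo2 in 53.1% and 9.09%, Nell2 in 42.9% and 9.09%, Gfra3 in 20.4% and 0%, and Meis2 in 93.9% and 69.7%. Of the SU markers, Enpp2 was positive in 80.3% of SU and 12.2% of VMP cells and Col4a5 in 80.3% and 10.2%. No marker was positive in every cell of its tissue. Leaving aside Meis2, which most SU cells also carried, 46 of the 49 VMP cells were positive for at least 1 of Fgf10, Rspo2, Gfra3 and Nell2, but only 2 for all 4. Among SU cells 43 were positive for none of these 4 genes, 19 for 1 and 4 for 2. The SU markers Enpp2 and Col4a5 were both positive in 43 SU cells and both negative in 3, while 40 VMP cells had neither. The SU label includes urethral epithelium. Epcam and Cdh1, the defining epithelial adhesion genes, were positive in 0 of 66 SU cells, which allows a share of up to 4.55%, and in 0 of 49 VMP cells, which allows up to 6.12%. Of the 16 epithelial genes with an ID, 12 had no positive SU cell and 13 no positive VMP cell. The others were positive in 1 cell each (Cldn4, Krt15, Cdh3 and Krt5 in SU, Grhl2, Ovol1 and Rab25 in VMP), and no cell was positive for more than 1. Their summed level had a median of 1.53 CPM in SU (0 to 133) and 2.89 CPM in VMP (0 to 269). Col1a1, Col3a1 and Dcn, general fibroblast genes, were positive in all cells of both tissues.

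Across the 5582 genes with at least 10 reads in at least 20 cells, 25 were higher in VMP cells and 109 in SU cells past both limits used here, a difference of at least 30 percentage points in the share of positive cells and at least 4-fold in mean CPM. These are 0.448% and 1.95% of the genes. The median over all 5582 genes was 0.10 for the log2 ratio of mean CPM (VMP over SU, 1 CPM added to both means, which understates the change of low genes) and -6.93 percentage points for the share. The fold limit alone was passed by 120 genes toward VMP and 207 toward SU, and the share limit alone by 50 and 311. With every cell thinned to 199849 counts, 19 of the 25 and 65 of the 109 genes were past both limits. After thinning, at other read minimums and after leaving out cells, the filter of 20 cells was applied anew. A gene positive in few cells could then drop out through the filter alone. The 20-cell filter is 40.8% of VMP but 30.3% of SU cells, so a gene restricted to fewer VMP cells, as Gfra3 was, could not enter. This did not change the result. With no filter, or with a filter within 1 tissue, the same 25 and 109 genes were past both limits. Gfra3, with a share difference of 20.4 points, was within the share limit in any case.

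**Figure D1:**
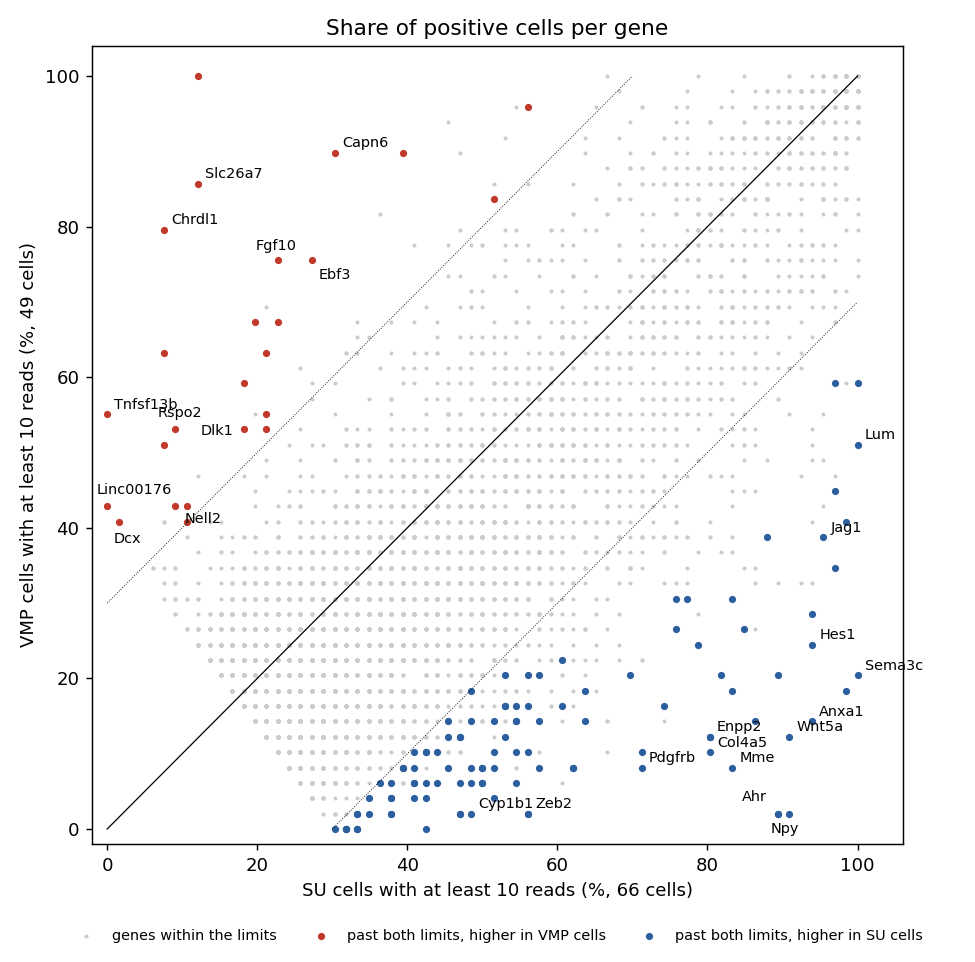
Each point is 1 of the 5582 genes, with the percentage of the 66 SU cells that had at least 10 reads on the x axis and that of the 49 VMP cells on the y axis. The 25 genes past both limits toward VMP (red) lie above the upper dotted line (30 percentage points) and the 109 toward SU (blue) below the lower one, where Ahr and Npy reach 89.4% of SU and 2.04% of VMP cells.

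Only 843 of the 5582 genes have a symbol in the sources used here, because symbols were paired with gene IDs only in the study's tables of transcripts that differed between the bulk libraries. Of these 843 genes, 19 were past both limits toward VMP (2.25%) and 68 toward SU (8.07%), shares that compare genes already selected for a difference in bulk. Members of the gene lists below are among the 843. Medians over all 5582 genes, given beside list medians, therefore come from an unlike set, and medians over the 843 were not taken. A gene without a symbol stood first. ENSRNOG00000006956 was positive in all 49 VMP cells and in 8 SU cells (12.1%), with 12.8 CPM in the lowest, 452 in the median and 2325 in the highest VMP cell, against 0, 0 and 260.4 in SU cells. Of the 25 genes it had the largest difference in share, 87.9 points, and its log2 ratio was 5.08.

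Of 35 listed growth and differentiation factors, 20 had an ID and 14 passed the filter, of which 3 were past both limits toward VMP (2.25% of all genes with a symbol were), 1 toward SU (8.07%), and 10 stayed within them. The median share difference of the 14 was 7.44 points and the median log2 ratio 0.61. The 3 VMP genes were Fgf10, Nell2 and Dlk1, and the SU gene was Bmp2.

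Fgf10, the fibroblast growth factor that mesenchyme supplies to budding epithelium (ENSRNOG00000012278, chr2:51672722-51750369 in Rnor_6.0), had 2.32 CPM in the lowest VMP cell, 111 in the median cell and 4337 in the highest. The SU cells had 0, 7.62 and 671 CPM. The highest SU cells therefore lay above the median of VMP, and the ranges overlapped, with a log2 ratio of 4.36. Reads of Fgf10 were present in 65 of 66 SU cells, mostly below the limit of 10 reads, so the tissues differed in amount and not in the presence of any read. After thinning to equal depth the share difference was 55.2 points, against 52.8 in the full data. Nell2, a secreted glycoprotein with EGF-like repeats, had 12.6 CPM in the median VMP cell and 1282 in the highest, while the median SU cell had no read and the highest had 291. Its log2 ratio was 4.21. Dlk1, an imprinted EGF-like protein related to Notch ligands, had a median of 32.2 CPM and a highest value of 1789 in VMP, and 0 and 466 in SU, with a log2 ratio of 3.40.

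Bmp2, a bone morphogenetic protein, went the other way with 50.0% of SU and 8.16% of VMP cells positive. Its median was 15.1 CPM in SU, where the highest cell had 644, and 0 in VMP, where the highest had 229. The log2 ratio was -2.32. Bmp2 was no longer past both limits after thinning, at 50 reads or with 10 CPM added. Bmp4, its close relative, was positive in 35 SU and 11 VMP cells with a log2 ratio of -0.98 and stayed within the fold limit. Other members stayed within the limits. Ptn, the heparin-binding growth factor pleiotrophin, was positive in all 49 VMP and 78.8% of SU cells, with medians of 951 and 137 CPM and a log2 ratio of 2.04. Igf2, the imprinted insulin-like growth factor, was positive in 91.8% and 63.6% with medians of 831 and 105 CPM, and Fgf7, a fibroblast growth factor that signals to epithelium as Fgf10 does, in 34.7% and 9.09% with a log2 ratio of 3.13. Scube1 reads reached the limit in 10.2% and 3.03% of cells and its highest cell was an SU cell at 350.2 CPM.

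**Figure D2:**
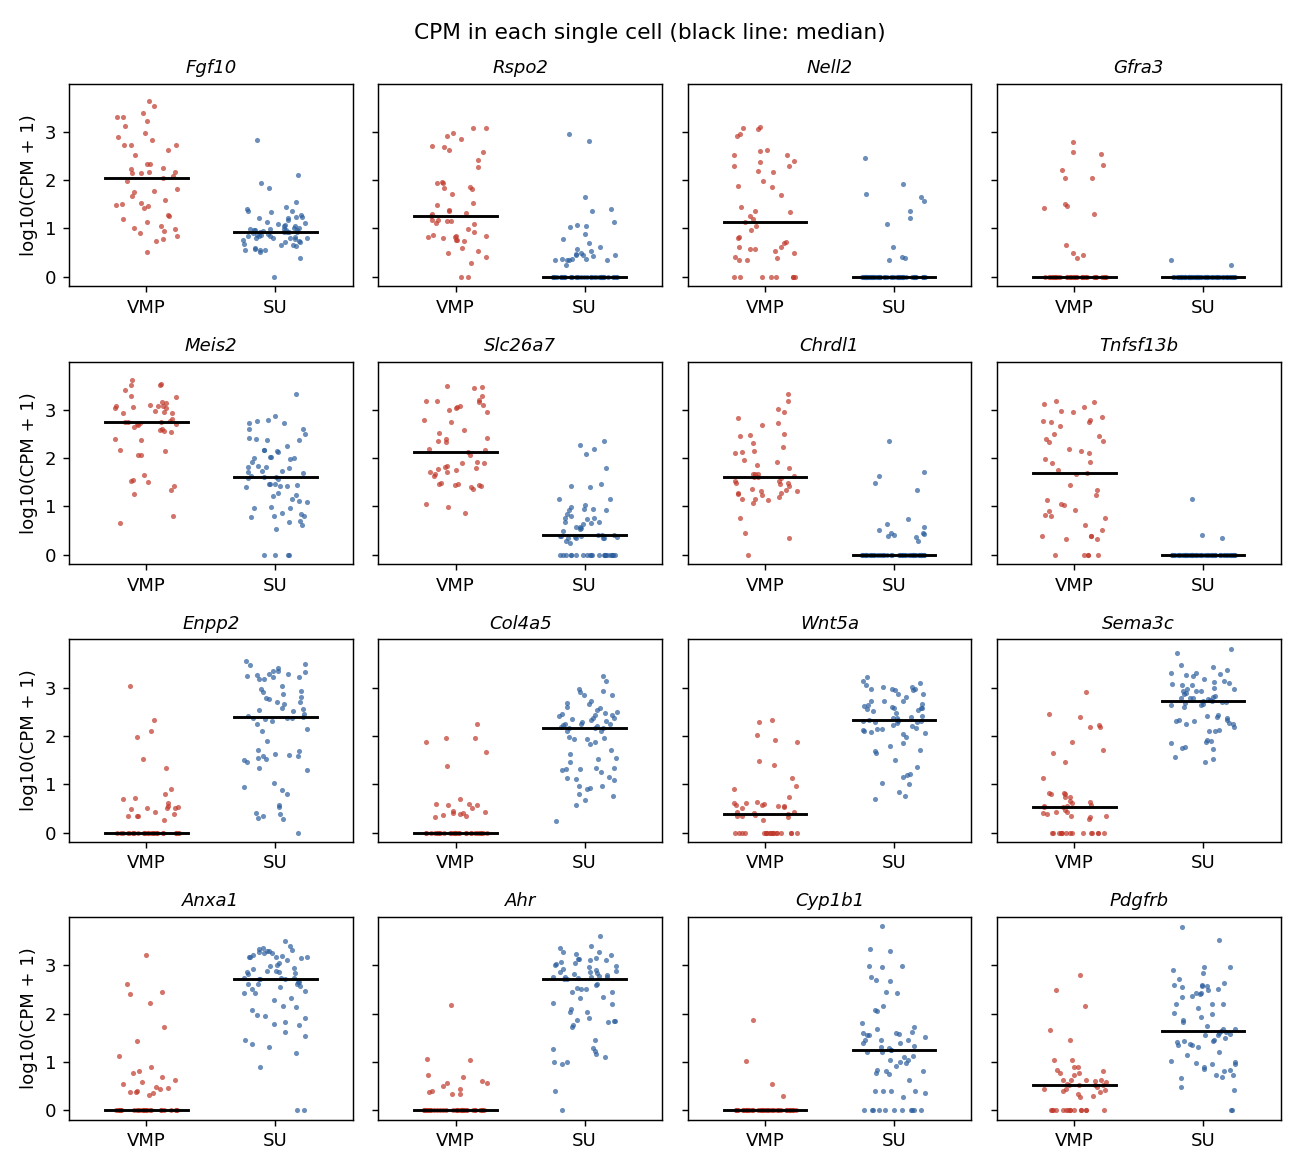
Each point is 1 cell, with log10(CPM + 1) on the y axis and the tissue on the x axis, and the black line is the median. The upper 8 genes have more VMP than SU cells with high values, among them Tnfsf13b with 0 SU cells at 10 reads, and the lower 8 have the reverse, with single VMP cells reaching SU levels for Enpp2, Sema3c and Anxa1.

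The list of the Wnt pathway held ligands, receptors, modulators and targets, and 18 of its 41 members had an ID. Of the 7 that passed the filter, Rspo2 was past both limits toward VMP (2.25% of all genes with a symbol), and Wnt5a, Dkk3 and Apcdd1 toward SU (8.07%). The median log2 ratio of the 7 was -0.13, with 3 above and 4 below 0.

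Rspo2 encodes an R-spondin, a secreted protein that strengthens Wnt signals at the receptor (ENSRNOG00000037687, chr7:81924050-82059789). VMP cells had 0 CPM in the lowest, 17.3 in the median and 1215 in the highest cell, and SU cells 0, 0 and 886. A read was present in 47 VMP cells and 29 SU cells. The log2 ratio was 2.60, and 21 VMP cells were positive for both Rspo2 and Fgf10 against 0 SU cells. Rspo3, another R-spondin, was positive in 8 VMP cells and 1 SU cell, and Sfrp1, a secreted Wnt-binding protein, in 40.8% and 15.2% with a log2 ratio of 2.29.

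Wnt5a, a Wnt ligand that mostly signals outside the beta-catenin route (ENSRNOG00000015618, chr16:4469468-4489860), was positive in 90.9% of SU cells and 12.2% of VMP cells. Its CPM was 3.86 in the lowest, 211 in the median and 1678 in the highest SU cell, against 0, 1.47 and 213 in VMP. The highest VMP cell thus stood near the median SU cell, and the log2 ratio was -4.43. Dkk3, a member of the dickkopf family, was positive in 50.0% of SU and 6.12% of VMP cells with a log2 ratio of -3.93. Apcdd1, a membrane inhibitor of Wnt signalling, was positive in 51.5% and 10.2% with a log2 ratio of -2.84, and was no longer past both limits after thinning.

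Antagonists and receptors of the BMP and TGF-beta family gave 1 gene past both limits, toward VMP (2.25% of all genes with a symbol), among 7 that passed the filter. The list had 26 members and 11 with an ID. The medians of the 7 were -13.3 points and a log2 ratio of -0.07, beside -6.93 points and 0.10 for all 5582 genes. The gene past both limits was Chrdl1, a secreted chordin-like protein that binds bone morphogenetic proteins (ENSRNOG00000004330, chrX:114554359-114658931). It was positive in 79.6% of VMP cells (95% Clopper-Pearson interval 65.7 to 89.8) and in 7.58% of SU cells (2.51 to 16.8), intervals that cover counting error only. The lowest VMP cell had 0 CPM, the median 40.2 and the highest 2159, while SU cells had 0, 0 and 229. The log2 ratio was 4.88.

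The remaining VMP genes came from varied families. Slc26a7, an anion transporter of the SLC26 family (ENSRNOG00000006096, chr5:27986663-28177340), was positive in 85.7% of VMP and 12.1% of SU cells. Its CPM was 6.45, 131 and 3025 in the lowest, median and highest VMP cell and 0, 1.53 and 219 in SU, with a log2 ratio of 5.18. Capn6, a calpain-family protein that lacks protease activity, was positive in 89.8% and 30.3%. It had 1137 CPM in the median VMP cell and 5.35 in the median SU cell, and a log2 ratio of 3.93.

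Tnfsf13b and Linc00176 were the VMP genes that no SU cell was positive for. Tnfsf13b encodes the B cell activating factor BAFF of the tumour necrosis factor family (ENSRNOG00000014464, chr16:85275678-85306366) and was positive in 27 VMP cells (55.1%) and in 0 SU cells. The median VMP cell had 48.9 CPM, a value above that of all SU cells, and the highest had 1548. Summed over cells it had 7396 reads in VMP and 11 in SU, and the log2 ratio was 7.74. Linc00176, a non-coding transcript, was positive in 21 VMP cells, with 6102 reads in VMP and 1 read in all SU cells together. Its median VMP cell had 1.19 CPM and its highest 1595, so high levels were found in a subset of VMP cells. Dcx, the neuronal microtubule protein doublecortin, was positive in 40.8% of VMP cells and 1.52% of SU cells, with highest values of 2162 and 126 CPM and a log2 ratio of 5.73. Neither Linc00176 nor Dcx was past both limits without the cells positive for 3 or more genes of another cell type. Only 3 VMP cells were left out there, too few to bring either share difference within the share limit. The filter, applied anew, could drop either gene by itself, so this loss does not tie them to cells of another type. Linc00176 was not past both limits after thinning either.

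Pkp4, a plakophilin of cell junctions, was positive in 89.8% of VMP and 39.4% of SU cells (log2 ratio 2.35), and Itga8, an integrin chain of mesenchyme, in 67.3% and 19.7% (2.81). Kdr, the receptor for vascular endothelial growth factor that usually marks endothelium, was positive in 67.3% of VMP and 22.7% of SU cells with a log2 ratio of 2.27. The other 4 endothelial genes with an ID had a higher share of positive cells in SU. Cdh5, the endothelial cadherin, was positive in 14.3% of VMP and 21.2% of SU cells, and only 3 VMP cells but 9 SU cells were positive for 3 or more endothelial genes. Des, the intermediate filament desmin of muscle, was positive in 42.9% of VMP and 10.6% of SU cells with a log2 ratio of 3.27, and was the only 1 of 3 smooth muscle genes with an ID that passed the filter. Kdr and Des were no longer past both limits after thinning, at 50 reads or without cells positive for 3 or more G2/M genes. Tnnc1, the slow troponin C of muscle, was positive in 59.2% and 18.2% with a log2 ratio of 2.58. Tnnc1 is not on the skeletal muscle list, of which no gene passed the filter, and 0 VMP and 4 SU cells were positive for 3 or more of the list. Without the 3 VMP and 13 SU cells positive for 3 or more genes of another cell type, 24 genes were past both limits toward VMP and 112 toward SU, 22 and 89 of them shared with the full set. In that setting 4715 genes passed the filter. The leukocyte and erythroid lists had only 2 genes with an ID each, so no cell could reach 3 of them. The neural list had 4 and the endothelial list 5, Kdr included. Cells of these types could therefore stay in.

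Of 54 listed transcription factors of mesenchyme, 25 had an ID and 19 passed the filter, with 3 past both limits toward VMP (Ebf3, Ebf1 and Meis1), 2 toward SU (Klf4 and Zeb2) and 14 within them, beside 2.25% and 8.07% of all genes with a symbol. The median log2 ratio of the 19 was 0.63 and the median share difference 0.31 points.

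Ebf3, of the early B cell factor family (ENSRNOG00000016102, chr1:209523157-209641123), was positive in 75.5% of VMP and 27.3% of SU cells. Its CPM was 4.63 in the lowest VMP cell, 38.5 in the median and 1072 in the highest, and 1.83, 9.01 and 379.8 in SU. Every cell of both tissues had at least 1 read of it, so the share difference is 0 when 1 read makes a cell positive, and the tissues differed in its level, with a log2 ratio of 2.53. Its relative Ebf1 was positive in 55.1% and 21.2% with a log2 ratio of 2.52, and was no longer past both limits after thinning. Meis1, a homeobox factor that pairs with Hox and Pbx proteins, had 581 CPM in the median VMP cell and 14.2 in the median SU cell, with 83.7% and 51.5% positive and a log2 ratio of 2.63. Meis2, of the same family, had medians of 559.5 and 40.3 CPM and a log2 ratio of 2.60 but stayed within the share limit, with 24.2 points. At 50 reads in place of 10 its share difference was 45.3 points.

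Zeb2, a repressor known from epithelial to mesenchymal transition, was positive in 56.1% of SU cells and in 1 VMP cell. Its highest CPM was 955 in SU and 124 in VMP, and the log2 ratio was -4.33. Klf4, a zinc finger factor, was positive in 84.8% of SU and 26.5% of VMP cells, with medians of 109 and 5.79 CPM and a log2 ratio of -2.47. Foxf1, a factor of visceral mesenchyme, and Twist1 were positive in 80.3% and 43.9% of SU cells and 40.8% and 10.2% of VMP cells and stayed within the fold limit.

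Both matrix lists had members past the limits toward SU and none toward VMP. Of 10 collagen, laminin and basement membrane genes that passed the filter (14 with an ID of 32), 3 were past both limits toward SU and 0 toward VMP, with a median share difference of -21.2 points. Of 26 other matrix genes (27 with an ID of 50), 8 were past both limits toward SU and 0 toward VMP, with a median of -38.2 points. Both medians lie below the -6.93 points of all genes, most of which have no symbol and were not selected in bulk. Of all genes with a symbol, 8.07% were past both limits toward SU.

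Among the collagens, Col4a5, a type IV collagen chain of basement membranes (ENSRNOG00000018951, chrX:112769645-112983685), had 0.761 CPM in the lowest, 143 in the median and 1706 in the highest SU cell, and 0, 0 and 177 in VMP. The log2 ratio was -4.29. Col14a1, a fibril-associated collagen, was positive in 83.3% of SU and 18.4% of VMP cells (log2 ratio -3.18), and Nid1, the basement membrane protein nidogen, in 81.8% and 20.4% (-3.45). The fibrillar collagens differed by level alone, since Col1a1 and Col3a1 were positive in all cells. Col1a1 had medians of 9326 CPM in SU and 2884 in VMP and a log2 ratio of -1.55, and Col3a1 medians of 9751 and 2582 and a log2 ratio of -1.74.

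The 8 other matrix genes were Ogn, Vcan, Lum, Fbln2, Sdc2, Eln, Fbln5 and Mfap5. Ogn, the small leucine-rich proteoglycan osteoglycin (ENSRNOG00000029792, chr17:14607442-14627937), was positive in 98.5% of SU and 18.4% of VMP cells, with 491 CPM in the median SU cell, above the highest VMP cell at 368. Lum, the related lumican, was positive in all 66 SU cells and 51.0% of VMP cells, with medians of 4262 and 31.4 CPM and a log2 ratio of -2.87. Dcn, another proteoglycan of that family, had like values in single cells of both tissues, with medians of 3245 CPM in SU and 3078 in VMP and a log2 ratio of -0.02, which was 0.03 from means of log2 values. Eln, elastin, had medians of 745 and 69.8 CPM and a log2 ratio of -3.12, Fbln5 had -3.67, Fbln2 had -4.15 and Mfap5 had -2.46, which was not past both limits without cells positive for 3 or more G2/M genes. Loxl1, a lysyl oxidase of elastic fibres, was positive in 74.2% of SU and 14.3% of VMP cells, but its highest VMP cell had 2466 CPM against 2146 in SU, and the log2 ratio was -0.82.

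**Figure D3:**
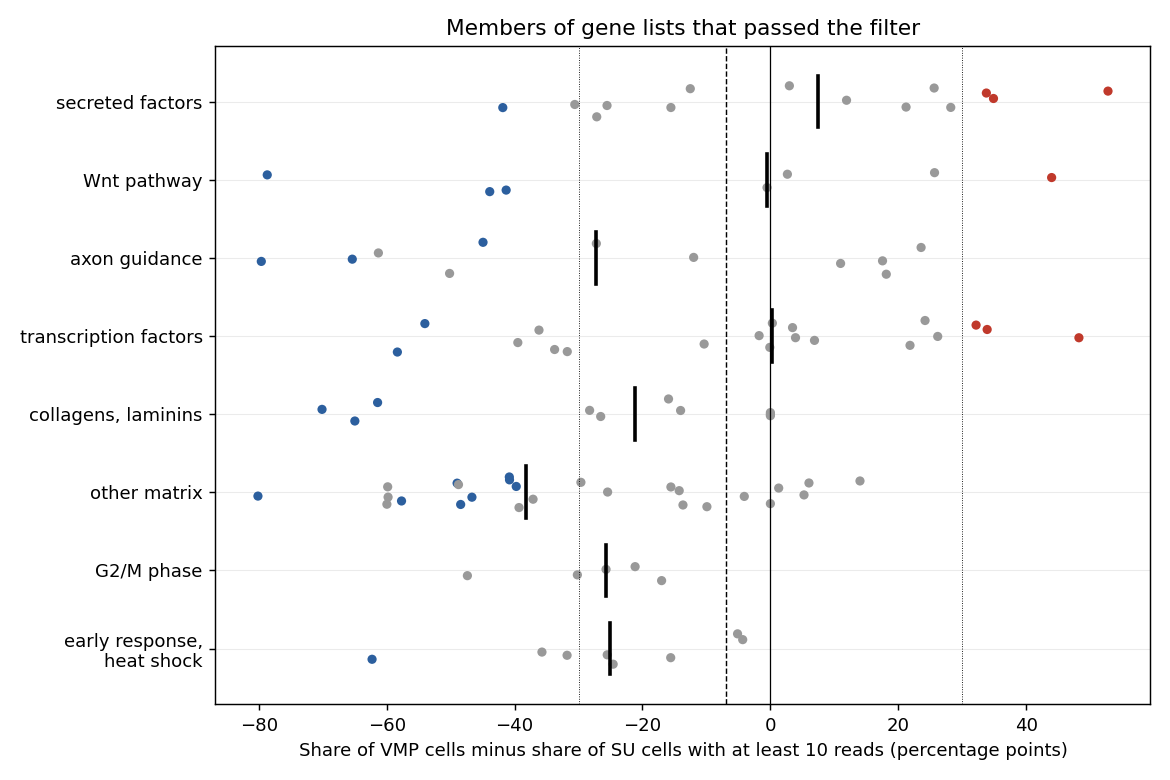
Each point is a gene of the named list that passed the filter, placed by its share of positive VMP cells minus that of SU cells in percentage points, with genes past both limits in red (VMP) and blue (SU). The black bars are list medians and the dashed line is the median of all 5582 genes, -6.93 points, most of them without a symbol. The bars of both matrix lists (-21.2 and -38.2) lie to the left of the dashed line.

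Genes of axon guidance, which also direct cell movement in mesenchyme, were past both limits only toward SU in this list, with 3 of 11 that passed the filter (15 with an ID of 38). Of all genes with a symbol, 8.07% were past both limits toward SU and 2.25% toward VMP. The medians of the 11 were -27.2 points and a log2 ratio of -0.72, beside -6.93 points and 0.10 for all 5582 genes. Sema3c, a secreted semaphorin (ENSRNOG00000006526, chr4:14318274-14490446), was positive in all 66 SU cells and 20.4% of VMP cells. Its lowest SU cell had 28.2 CPM, the median 519 and the highest 6405, against 0, 2.33 and 823 in VMP, with a log2 ratio of -4.30. Nrp1, a neuropilin that serves as receptor for class 3 semaphorins, was positive in 47.0% of SU cells and in 1 VMP cell (log2 ratio -4.67), and Epha3, an ephrin receptor, in 93.9% and 28.6% (-2.17). Slit2, a secreted guidance ligand, was positive in 93.9% of SU and 32.7% of VMP cells with a log2 ratio of -1.71, within the fold limit. Robo1, a receptor for Slit proteins, was positive in 32.7% of VMP and 9.09% of SU cells with a log2 ratio of 3.01, and Robo2 in 93.9% and 75.8% with 1.52, both within the share limit.

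The SU gene with the lowest log2 ratio among the 15 named by difference in share was Ahr, the aryl hydrocarbon receptor, a transcription factor activated by small ligands (ENSRNOG00000004342, chr6:54963990-55001464). It was positive in 59 SU cells (89.4%, 79.4 to 95.6) and in 1 VMP cell (2.04%, 0.0517 to 10.9). SU cells had 0 CPM in the lowest, 525 in the median and 4075 in the highest cell, and VMP cells had 0, 0 and 154, so the median SU cell lay above all VMP cells. The log2 ratio was -7.02. Cyp1b1, a cytochrome P450 gene known as a target of this receptor and picked after its values were seen, was positive in 32 SU cells, of which 31 were also positive for Ahr, and in 1 VMP cell, which was not. Its median SU cell had 17.1 CPM and its highest 6404, the highest VMP cell had 73.4, and the log2 ratio was -6.52. It was no longer past both limits after thinning or at 50 reads.

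Hes1 and Jag1 belong to the Notch pathway. Hes1, a repressor switched on by Notch (ENSRNOG00000001720, chr11:74312806-74315248), had 1.83, 71.4 and 419.9 CPM in the lowest, median and highest SU cell and 0, 2.23 and 209.9 in VMP, with 93.9% and 24.5% positive and a log2 ratio of -2.75. Jag1, a Notch ligand picked after its values were seen, was positive in 95.5% of SU and 38.8% of VMP cells, with medians of 1069.6 and 12.1 CPM and a log2 ratio of -2.29. Of the SU cells 59 were positive for both and 0 for neither, and of the VMP cells 8 were positive for both and 26 for neither.

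The promoters of Cyp1b1 and Hes1 are shown because each holds the core letters bound by the factor known to act on it, TNGCGTG for the Ahr complex and GTGGGAA for RBPJ, the DNA-binding partner of Notch. The sequences are the 250 bases before the RefSeq start in assembly GRCr8, read 5′ to 3′ on the strand of the gene with the match in capitals, chr6:21094315-21094564 on the plus strand for Cyp1b1 and chr11:84213046-84213295 on the minus strand for Hes1.
Cyp1b1: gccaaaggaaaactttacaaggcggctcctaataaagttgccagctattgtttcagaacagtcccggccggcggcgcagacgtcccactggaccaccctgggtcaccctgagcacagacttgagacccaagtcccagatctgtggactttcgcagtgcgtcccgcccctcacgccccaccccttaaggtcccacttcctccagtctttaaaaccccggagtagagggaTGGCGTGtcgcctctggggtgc
Hes1: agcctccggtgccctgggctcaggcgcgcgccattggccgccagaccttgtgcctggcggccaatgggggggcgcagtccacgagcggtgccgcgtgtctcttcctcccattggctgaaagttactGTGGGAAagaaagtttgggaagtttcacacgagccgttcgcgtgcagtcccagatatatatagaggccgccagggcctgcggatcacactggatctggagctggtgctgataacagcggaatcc
The Ahr letters end 15 bases before the start of Cyp1b1 and the RBPJ letters 117 bases before that of Hes1. Searched on both strands, TNGCGTG was found in 4.09% of all 33469 RefSeq promoters of this length, in 5 of the 47 SU genes that matched a promoter (Cyp1b1, Hes1, Itga4, Lum and Tle4) and in 1 of 14 VMP genes (Dlk1). GTGGGAA was found in 5.27% of all promoters, in 2 SU genes (Hes1 and Nr4a2) and in 1 VMP gene (Kdr). For the VMP factors, TGACAG, the core letters of Meis proteins, was found in 15.8% of all promoters and in 2 of 14 VMP and 2 of 47 SU genes, and the palindromic consensus of the Ebf family in 0.738% of all and in 0 of either group. The heat shock letters GAANNTTC were found in 7.23% of all, in 0 VMP and 3 SU genes. These are descriptions of letters in a window and not of bound sites.

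Anxa1, the calcium- and phospholipid-binding annexin A1 (ENSRNOG00000017469, chr1:237893966-237910012), had 0, 523 and 3228 CPM in the lowest, median and highest SU cell and 0, 0 and 1639 in VMP, with 93.9% and 14.3% positive and a log2 ratio of -3.70. Enpp2, the secreted enzyme autotaxin that makes lysophosphatidic acid (ENSRNOG00000004089, chr7:94480396-94563001), had 0, 243 and 3621 CPM in SU and 0, 0 and 1087 in VMP, with a log2 ratio of -4.30. In both genes a few VMP cells reached SU levels while the median VMP cell had no read. Mme, the membrane peptidase neprilysin, was positive in 83.3% of SU and 8.16% of VMP cells (log2 ratio -5.10), Calcrl, a receptor for calcitonin-family peptides, in 89.4% and 20.4% (-2.45), and Dpt, the matrix protein dermatopontin, in 80.3% and 12.2% (-3.28). Pdgfrb, the beta receptor for platelet-derived growth factor, was positive in 71.2% of SU and 8.16% of VMP cells with a log2 ratio of -3.45, and its alpha partner Pdgfra in 83.3% and 75.5% with 0.54.

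Npy, which encodes neuropeptide Y, and LOC100912228, a gene model beside it on chromosome 4, had almost the same values. Npy had 6713 reads in SU and 283 in VMP, and LOC100912228 had 6794 and 289. In 37 of the 73 cells with a read of either, the counts differed by at most 10% of the larger. Both were positive in 59 SU cells and 1 VMP cell, with log2 ratios of -4.08 and -4.06. How the counting divided reads between the copies is not known, so the pair is uncertain as 2 genes and their values are not independent. NEWGENE_1308171, a gene model without a described product, was positive in 86.4% of SU and 14.3% of VMP cells with a log2 ratio of -3.83. Hspa1a, a heat shock protein, stands under 2 gene IDs, of which 1 was past both limits with 97.0% of SU and 34.7% of VMP cells positive (log2 ratio -2.10, not past both limits without cells positive for 3 or more G2/M genes) and the other was within them (50.0% and 14.3%, -0.99).

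Of the early response and heat shock genes all 8 IDs passed the filter and 1 was past both limits toward SU (8.07% of all genes with a symbol were). All 8 had a higher share in SU, which was also the more common direction over all 5582 genes. The median share difference was -25.0 points for the 8 and -6.93 for all genes. Of the 8, 7 had a log2 ratio below 0, and their median was -0.58 against 0.10 for all genes. Their summed level per cell had a median of 1093 CPM in VMP (59.8 to 4866) and 1766 CPM in SU (198 to 7670). Fos, the immediate early gene, was nearly alike, with 91.8% and 97.0% positive and a log2 ratio of -0.07. Of 8 G2/M genes with an ID (of 52), 5 passed the filter, 0 were past both limits, and 25 SU cells but 3 VMP cells were positive for 3 or more of the 8. Cenpf, a centromere protein of dividing cells, was positive in 57.6% of SU and 10.2% of VMP cells with a log2 ratio of -1.29. Without those 28 cells, 33 genes were past both limits toward VMP and 97 toward SU, of which 23 and 75 were among the 25 and 109. Only 4025 genes then passed the filter. A loss here can come from the filter as well as from the cells left out, and these were not told apart. The part of early response and cycling in the other contrasts was not tested beyond this.

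The smaller lists gave few genes, to be read beside 2.25% of all genes with a symbol past both limits toward VMP and 8.07% toward SU. Of 6 genes on the list of the insulin-like growth factor axis that passed the filter, Igfbp2, a binding protein positive in 62.1% of SU and 8.16% of VMP cells, was past both limits toward SU. The list also holds Dlk1, which was past both limits toward VMP. Dlk1 is not a member of that axis and is already counted above among the growth factors. Of 11 general mesenchymal genes that passed, Pdgfrb, Lum, S100a6 and Cd44 were past both limits toward SU and 0 toward VMP. S100a6 and Cd44 were not without cells positive for 3 or more G2/M genes, nor was S100a6 after thinning. Of 2 pericyte genes that passed, Cox4i2 was past both limits toward SU (37.9% and 2.04%, log2 ratio -3.78) and Abcc9 was within them (54.5% and 8.16%, -1.63). Cox4i2 was not past both limits after thinning, nor without cells positive for 3 or more G2/M genes. Only when those cells were left out could the filter alone drop it. Retinoic acid genes (4 passed), GDNF family genes (1), Hedgehog genes (1), steroid receptor genes (1), Hox genes (1) and S phase genes (2) had 0 past both limits. Cyp26b1, which degrades retinoic acid, was positive in 34.7% of VMP and 6.06% of SU cells and did not pass the fold limit, with a log2 ratio of 1.78. Of 2 leukocyte, 4 neural and 2 erythroid genes with an ID, 0 passed the filter.

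Some genes named in the study, with Ret from the GDNF list, were found in few cells of any kind. Gfra3, a GDNF family co-receptor, was positive in 10 VMP cells, with a highest value of 622 CPM and 1346 reads in VMP against 2 reads in SU. Ret, the kinase that such co-receptors engage, was positive in 10 VMP cells and 1 SU cell, and only 1 VMP cell was positive for both. Scara5, a scavenger receptor, was positive in 3 VMP cells and Nmur2, a neuromedin U receptor, in 4, and neither had a single read in SU, while 19 and 27 VMP cells had at least 1 read. Aldh1a3, which makes retinoic acid, was positive in 20.4% of VMP and 10.6% of SU cells, and Unc5b, a netrin receptor, in 2.04% and 13.6%. Aspn, the proteoglycan asporin, was positive in 28.6% and 27.3%. None of these passed both limits.

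How sharply a gene parted the tissues varied within both groups. The counts of separation below cover only genes chosen for a difference in these same cells. They were not taken over all tested genes, so no background share stands beside them. In 2 of the 25 VMP genes (ENSRNOG00000006956 and Tnfsf13b) and 5 of the 109 SU genes (Ahr, Ogn, Sox5, Cpq and ENSRNOG00000033434) the median cell of the higher tissue lay above the highest cell of the other. In 0 genes did the lowest cell of the higher tissue do so, so the ranges of all 134 genes overlapped. The median of the other tissue was 0 CPM for 15 of the 25 and 73 of the 109 genes. At least 90% of the cells of the higher tissue were positive for 2 VMP and 14 SU genes, and under 50% for 5 and 43. Sox5 and Cpq were picked for this pattern after their values were seen and were not past both limits without cells positive for 3 or more G2/M genes. The next genes were picked only for their place at the share limit. These were P3h1 (9 VMP and 32 SU cells), Gcnt1 (3 and 24), Angptl1 (26 and 14) and ENSRNOG00000014530 (20 and 7) just inside, and Cenpu (1 and 21), Sdc4 (6 and 27), Gata3 (17 and 4) and Dmd (19 and 7) just outside.

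The 134 genes were chosen on these same cells, so their counts per cell are a description. VMP cells were positive for 7 to 23 (median 16) of the 25 VMP genes and for 4 to 29 (median 13) of the 109 SU genes. SU cells were positive for 0 to 13 (median 5) of the VMP genes and for 35 to 101 (median 65) of the SU genes. The counts of SU genes did not overlap between the tissues, and those of VMP genes overlapped between 7 and 13.

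**Figure D4:**
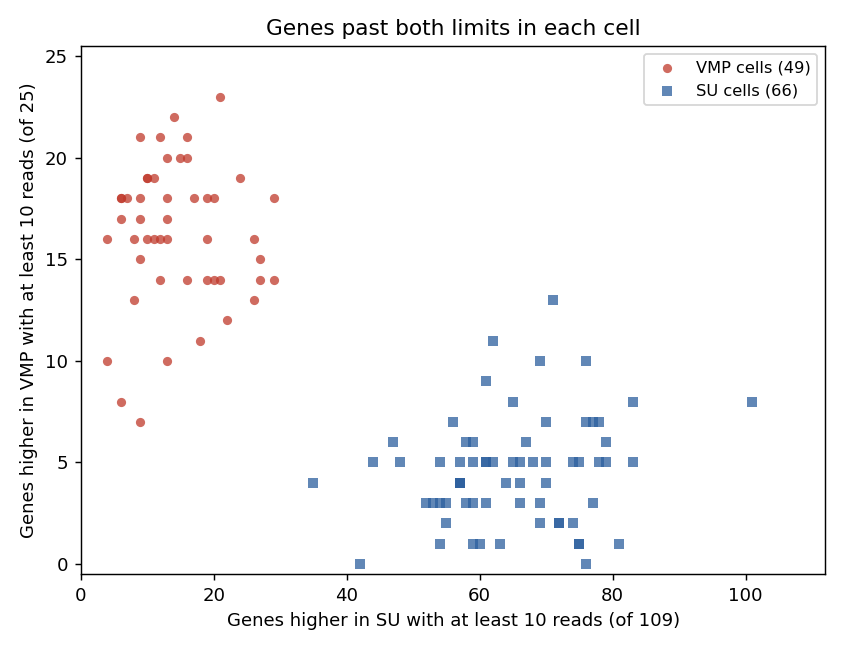
Each point is 1 cell, with the number of the 109 SU genes at 10 reads or more on the x axis and of the 25 VMP genes on the y axis, for 49 VMP (red circles) and 66 SU cells (blue squares). VMP cells lie between 4 and 29 on the x axis and SU cells between 35 and 101.

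The bulk libraries gave a second reading of the same genes. There was 1 library per tissue and assay, Tag-seq of intact tissue and RNA-seq of bulk cells taken from the dissociated suspension before single-cell handling, so RNA-seq shares its dissociation with the single cells. In bulk, fewer cells of a type and less RNA per cell cannot be told apart. Of the 25 VMP genes, 23 of the 24 with at least 10 counts in a Tag-seq library had a log2 ratio above 0 (55.2% of all genes did) and 25 of 25 in RNA-seq (44.2%). Of the 109 SU genes, 106 of 109 had a ratio below 0 in RNA-seq (55.8% of all genes), but only 59 of 97 in Tag-seq (44.8%). The symbols came from bulk tables, so the direction of named genes in bulk is not independent. For the 41 SU genes without a symbol, RNA-seq was below 0 in 38 of 41 and Tag-seq in 14 of 35, and the median Tag-seq ratio was 0.17.

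Of the 62 named SU genes with at least 10 counts in a Tag-seq library, 17 pointed to VMP in intact tissue, and 0 of 68 did so in RNA-seq. Tmem119, a membrane protein picked for the opposite directions, was positive in 57.6% of SU and 14.3% of VMP cells (log2 ratio -2.20), with -1.39 in RNA-seq and 2.16 in Tag-seq. Epha3 had -2.17 in single cells, -1.61 in RNA-seq and 1.23 in Tag-seq, and P3h1, a collagen prolyl hydroxylase, -2.45, -1.71 and 1.19. Among the matrix genes, Fbln2 had 0.58, Nid1 0.54, Mfap5 0.22 and Eln 0.13 in Tag-seq against ratios between -4.15 and -2.46 in single cells. On the VMP side, Slc26a7 had Tag-seq and RNA-seq ratios of 2.15 and 3.89, Chrdl1 of 1.61 and 2.65, and Des of 0.08 and 2.09. Epcam, with 0 positive single cells, had bulk log2 ratios of -4.44 (Tag-seq) and -1.98 (RNA-seq), and the part of epithelium in the difference between the assays was not tested.

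**Figure D5:**
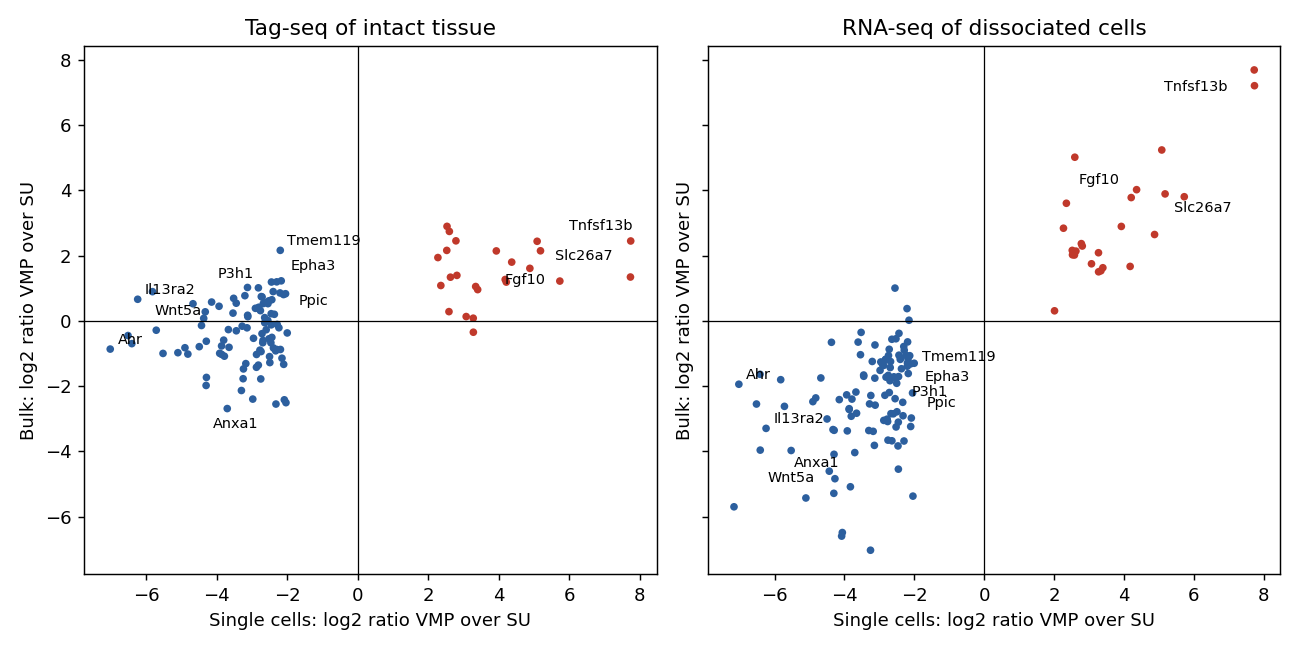
Each point is a gene past both limits in single cells (red higher in VMP, blue higher in SU) with at least 10 counts in a bulk library, with its single-cell log2 ratio on the x axis and its bulk log2 ratio on the y axis, Tag-seq left and RNA-seq right. All 25 red points lie above 0 in RNA-seq, and 38 of 97 blue points lie above 0 in Tag-seq against 3 of 109 in RNA-seq.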

How the data were processed

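The deposited single-cell tables hold raw counts of reads per Ensembl gene and cell. Per the labels and methods, the authors used Trimmomatic 0.33 for trimming, TopHat for alignment to Rnor_6.0, with gene models of Ensembl release 83, and Picard 1.128 to remove duplicates. For counting, the submitters' processing notes name HTSeq while the methods name summarizeOverlaps of the GenomicAlignments package, and which made these tables is not known here. Without molecular identifiers, reads are not independent molecules. Tag-seq counts came from 17-base tags aligned with Bowtie2. All columns were mapped to samples by name, and 95 spike-in rows were used for an alternative scaling only. From the counts, CPM and shares of cells with at least 10 reads were computed with pandas 2.3.3, scipy 1.17.1 and numpy 2.4.6 under Python 3.11.15 (figures with matplotlib 3.10.9) over genes with at least 10 reads in at least 20 cells. Limits were 30 percentage points and 4-fold, with 1 CPM added to mean CPM. Shares have 95% Clopper-Pearson intervals, and a share of 0 is bounded by 3 cells. No test across cells was made, since each tissue is 1 sample. Doublets were not removed.

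The members and lists were chosen with earlier results of these data known. Named genes are the 7 markers, genes the study's text names, the 15 with the largest share difference in each direction among those past the limits and with a symbol, and, of each list, members past the limits, up to 4 others and absent defining markers. Symbols and coordinates were read from the study's tables of bulk transcripts, with values and tests in those tables left unused. Alternatives were spike-in, TMM (edgeR 4.0.16) and DESeq2 1.42.0 scaling in R 4.3.3, thinning, other read minimums, filters, pseudocounts, means and limits, and leaving out cells. The procedure was tested on simulated data. Promoters were the 250 bases before RefSeq starts (GRCr8), matched for 14 of 19 named VMP and 47 of 68 named SU genes.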

Additional observations from a re-analysis of the deposited data

How the results depend on the processing

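The count of genes past both limits toward VMP (25) was 79 when 1 read made a cell positive and 15 at 50 reads, 8 with a share limit of 50 points and 44 with a fold limit of 2. The count toward SU (109) was 67 after thinning, 273 at 1 read, 49 at 50 reads, 248 with means of log2 values, 31 with the share limit of 50 points and 214 with the fold limit of 2. Fewer genes passed the filter after thinning (3885), without cells with genes of another type (4715) and without cells with G2/M genes (4025). More passed at 1 read (10150), and beyond this the cause was not tested. Under the other alternatives the counts lay between 23 and 35 toward VMP and between 85 and 127 toward SU. Leaving out cells with G2/M genes and a filter within 1 tissue were chosen after seeing the data. Spike-in scaling moved the median log2 ratio of all genes from 0.10 to -0.25, and means of log2 values moved it to -0.39.

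Of 650 values of 25 markers and genes named in the study, 6 had the other sign, none of a gene past the limits. Part of the 650 could not change. Other scalings, pseudocounts and means leave the share difference as it is, and other read minimums leave the log2 ratio as it is. The log2 ratio of Dcn was 0.03 from means of log2 values, 0.0090 from summed counts and 0.03 without cells over 3 median absolute deviations. The share difference of Aspn was -0.80 points at 50 reads and -1.27 without cells with G2/M genes, and that of Aldh1a3 was -1.73 at 1 read. No paired analysis was possible because the capture site numbers that both tissues carry name positions on separate captures and no test was made. An alternative without cells positive for mitotic genes was not run as planned, since only 1 of its 8 genes has a symbol here.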
